A study of Capra hircus with 10 samples.

Results

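The miRNA-circRNA pair list of this goat series names 30 circRNAs with a predicted site for chi-miR-26a-5p or chi-miR-26b-5p, out of 1327 circRNAs in the count table (2.26%). They were taken as every circRNA that the list pairs with either miRNA, and they come from 25 of 945 host genes on 16 chromosomes. In back-splice junction reads 1 of 28 tested members fell between preadipocytes and adipocytes at an adjusted p under 0.05, beside 1.39% of all 1294 circRNAs tested. This was circ_0000946 of ITGAV (log2 fold change -1.71, SE 0.40, n = 5 libraries a group, edgeR). Its reads, 2 to 10 a library, were all on day 0, so it met the filter for testing through that group alone. None of the 28 passed the threshold of 0.01, beside 0.927% of all. Together the members held 3.72% of the junction reads on day 0 and 3.67% on day 3. In non-junction reads, which come from linear RNA, the locus of the FAM188A circRNA rose by 0.52 on the log2 scale (SE 0.08) and was the only 1 of 19 tested members past 0.01, beside 21.7% of all 690 loci tested.

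A circRNA is made when the splicing machinery joins the end of an exon back to the start of the same or an earlier exon, so that reads across this junction count the circle and not the linear mRNA. A miRNA binds RNA mainly through its seed, the bases near its 5′ end, and a circRNA with such sites may hold the miRNA away from its mRNA targets. The miR-26 family is expressed from introns of the CTDSP phosphatase genes, and in fat cells it has been described as promoting adipogenic and thermogenic differentiation. Its members miR-26a and miR-26b share a seed and are mostly predicted to bind the same sites.

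The samples were 5 libraries of intramuscular preadipocytes (IMPA, day 0) and 5 of intramuscular adipocytes (IMA, day 3), all of genotype WT. The study's methods state that cells came from fat of the longissimus dorsi of 3 male Jianzhou goats aged 7 days. IMA were cultured in induction medium with 50 µmol/L oleic acid, and IMPA are the same kind of culture before induction. The labels do not say which goat gave which library, so that 5 libraries a group cannot all be separate animals and the p-values measure the spread between libraries, part of which may be technical. Induction and 3 days of culture cannot be told apart, and neither can fewer cells of a type and less RNA per cell.

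Depth in junction reads was 11421 to 15553 a library on day 0 and 9622 to 12499 on day 3. By the study's mapping table, every day 3 library had a lower share of uniquely mapped reads than any day 0 library. This difference cannot be told apart from the day, and its part in the results below was not tested. The smallest count above 0 was 2 and no count of 1 occurred, so a 0 may stand for 1 read or none. Of 12 adipocyte, 11 fibroblast, 5 endothelial and 4 macrophage marker genes, 0 host a circRNA here, and the cell type labels could not be checked from those lists. Of 15 striated muscle markers 3 do, and their summed level was 1023 to 1382 normalized CPM (junction reads scaled to a common library size) in IMPA and 1905 to 3740 in IMA, with the MYBPC1 circRNA at 0 on day 0 and at 5 to 10 reads a library on day 3. Those of MYBPC1 and MYPN passed the test and that of PAX7 did not (adjusted p = 0.000189, 0.000922 and 0.844, edgeR). The MYBPC1 circRNA met the filter for testing, reads in at least 5 libraries, through IMA alone, the group where it was higher. The part of this shift in the results below was not tested.

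The pair list gave chi-miR-26a-5p 27 circRNAs and chi-miR-26b-5p 28, against a median of 26 and a range of 1 to 136 over its 435 miRNAs. Of the 30 circRNAs, 25 were paired with both miRNAs. The circRNA of FYN, a Src family kinase, and that of LCOR, a nuclear receptor corepressor, were paired with miR-26a-5p alone. The RPAP2 pair circ_0001835 and circ_0001836 and the ADAM10 circRNA were paired with miR-26b-5p alone. None of the 30 was also among the 86 circRNAs paired with a let-7 miRNA or the 100 paired with miR-204 or miR-211. The members shared 3 circRNAs with the 94 circRNAs paired with a 3p arm of miR-26 (3.19% of those and 10% of the members, where the 94 are 7.08% of all circRNAs), from RPAP2 (circ_0001835), CDC42SE2 and FAM188A.

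For 6 members the site was listed only on what the list calls the junction sequence, taken here as the stretch across the back-splice, which exists in the circle and not in the linear RNA. These were circ_0000946 (ITGAV), the MKLN1 circRNAs circ_0002214, circ_0002219 and circ_0002222, circ_0003306 (ZCCHC4) and circ_0004825 (FYN). Of the 55 pairs with miR-26, 11 were junction-only (20%), against 331 of 13336 pairs over all miRNAs (2.48%). Among the 297 miRNAs with 20 or more circRNAs, miR-26a-5p (22.2%) had the rank 2 and miR-26b-5p (17.9%) the rank 3 by this share, and their median was 1.45%. The ranks are a description, since both miRNAs were mostly paired with the same circRNAs and the 3 MKLN1 junctions share a side.

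The members were slightly longer than the rest. Their spliced length had a median of 358 nt, against 319 nt for the 1297 circRNAs without a miR-26 pair, and they held a median of 3 exons against 2. The number of paired miRNAs was a median of 12 for the members and 9 for the rest, but it counts the miR-26 pairs by which the members were chosen. Leaving out miR-26a-5p and miR-26b-5p, the medians were 10 and 9. At like lengths these were 7.5 for 6 members and 8 for 340 others above 200 and up to 300 nt, 10 for 14 members and 10 for 504 others up to 400 nt, and 13.5 for 8 members and 14.5 for 254 others up to 600 nt. Across the 30 members spliced length and number of miRNAs other than these had a Spearman correlation of 0.78, and across all circRNAs length and number of all paired miRNAs 0.64. These are correlations across circRNAs, which share exons and hosts, and are given without a test.

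**Figure D1:**
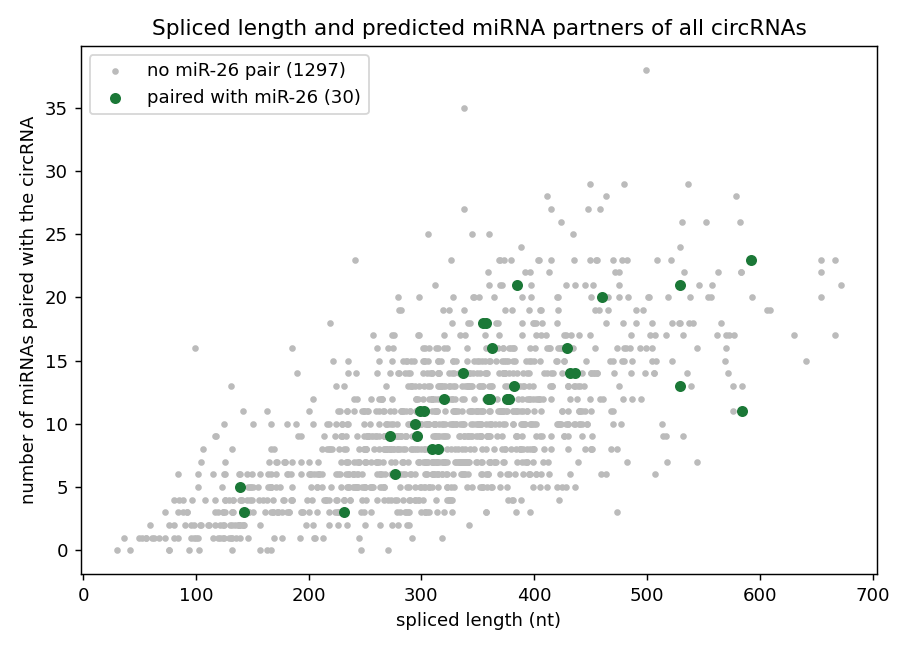
Spliced length in nt (x axis) against the number of miRNAs that the pair list gives a circRNA (y axis), each point being 1 circRNA. The 30 circRNAs paired with miR-26 (green) lie inside the cloud of the 1297 others (grey), from 139 nt to 592 nt, and longer circRNAs have more partners in both sets.

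The extremes came from few hosts. The shortest member by listed length was circ_0001836 of RPAP2, a phosphatase of RNA polymerase II, with 139 nt and 5 miRNAs. Its listed blocks do not reach the end of its location, so the circle may be longer than this. The longest was circ_0004555 of KIF27, a kinesin, with 592 nt and 23 miRNAs, the most of any member. A total of 29 members were annotated as exonic. The remaining member, circ_0004262 of PLIN2, was annotated as 3 intron blocks (chr8:24994567-24998067; the genome build is not given in the sources used here, and every location is as listed by the authors).

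Several hosts gave more than 1 circRNA, and there the paired and unpaired circles can be compared. MKLN1, which encodes muskelin of the CTLH ubiquitin ligase, gave 3 circRNAs, all paired on the junction alone, and all 3 hold the exon chr4:25082650-25082792, whose highest coordinate is a side of the junction in each (the gene lies on the minus strand, so this is the start of the exon in the direction of transcription). Both paired circRNAs of PAPD7, a non-canonical poly(A) polymerase, hold the exon chr20:66425936-66425982 of 47 nt, which the unpaired circ_0009530 skips although its junction uses the same base at the highest coordinate. The paired circRNAs of KIF27 share the exon chr8:76937073-76937279 of 207 nt, which the unpaired circ_0004556 does not hold. Those of RPAP2 share the exon chr3:69495825-69495905 of 81 nt, and their blocks of lowest coordinate overlap as well. The unpaired circ_0001832 is listed as 1 block of 36 nt and holds neither stretch. This block overlaps no block of the paired circles, so the comparison with it cannot single out either stretch. The list gives no position of a site, so that these exons are among what the paired circles share and are not mapped sites.

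Abundance among the members was uneven. Together they held 4484 of 121334 junction reads (3.70%), and 57.5% of these were on 5 circRNAs. The leading member, circ_0009534 of PAPD7 (chr20:66422777-66426883), held 25.9% of them and ranked 8 among all circRNAs by reads. The circRNA of the kinase gene DYRK1A, circ_0000298 (chr1:149571839-149575905), held 11.3% and ranked 21. That of ZCCHC4, a methyltransferase of ribosomal RNA, circ_0003306 (chr6:45307392-45308140), held 10.2% and ranked 25. At the other end 17 members had a mean of under 10 reads a library, and 33 of 300 values were 0. The members were read in all 10 libraries in 19 cases (63.3%), against 690 of all circRNAs (52.0%).

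**Figure D2:**
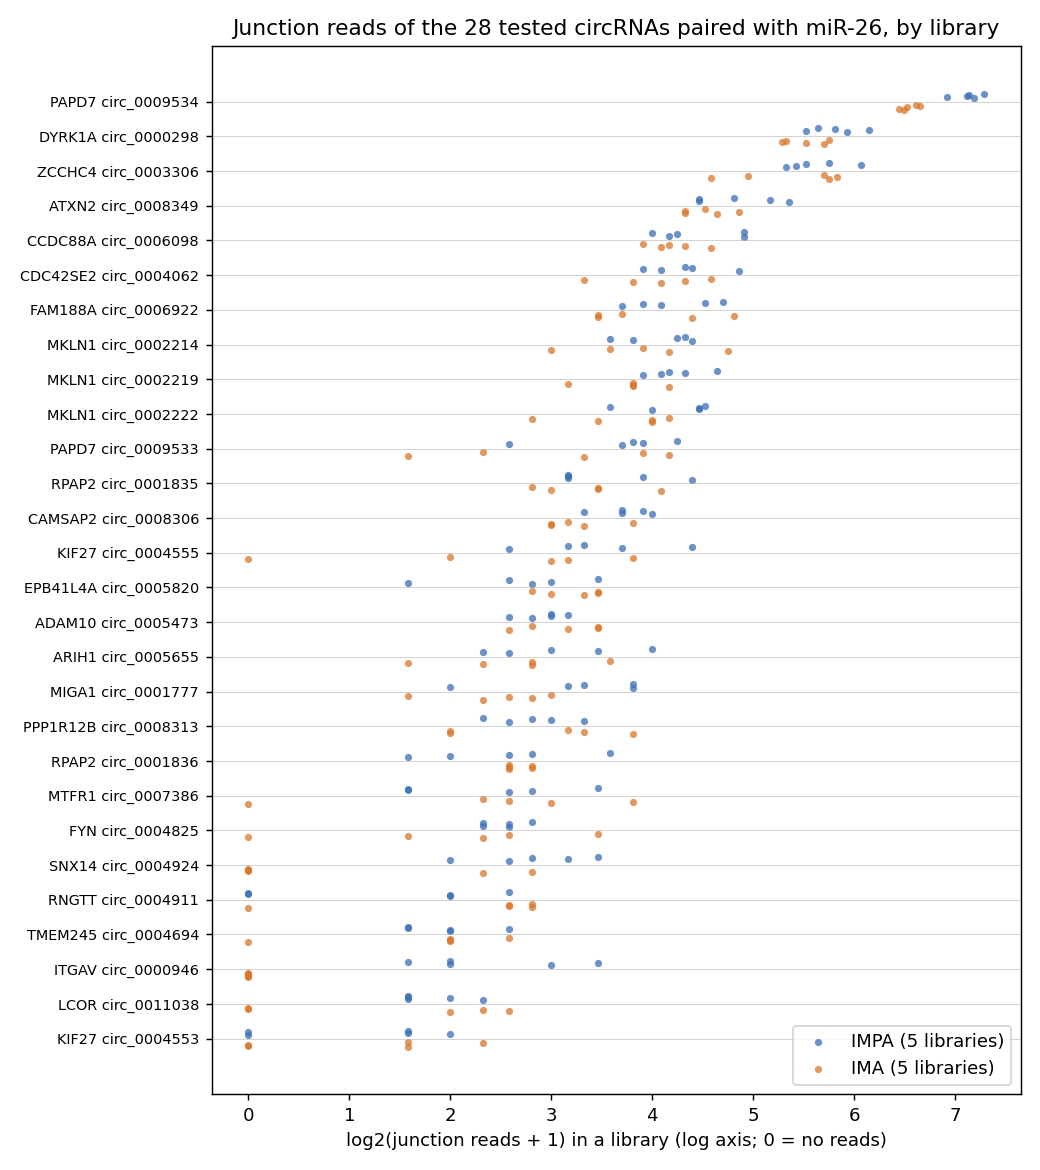
Junction reads of the 28 tested members in each library, as log2(reads + 1), with IMPA libraries in blue and IMA libraries in orange, and members ordered by their total. PAPD7 circ_0009534 stands above all others, most members have overlapping groups, and ITGAV circ_0000946 has reads in the 5 IMPA libraries and 0 in the 5 IMA libraries.

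The share of junction reads on the members did not separate the days. It was 3.72, 3.65, 3.78, 3.79 and 3.67% in IMPA replicates 1 to 5 and 3.82, 3.44, 3.34, 3.74 and 4.03% in IMA replicates 1 to 5. IMPA averaged 3.72% ± 0.0626 and IMA averaged 3.67% ± 0.281 (SD, n = 5 each), so the groups overlapped and IMA libraries were more spread. Between 26 and 29 members were detected in an IMPA library and between 25 and 27 in an IMA library.

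In junction reads 28 of the 30 members could be tested with edgeR, fitted over all 1294 circRNAs with reads in at least 5 libraries. At the threshold of 0.01 on the Benjamini-Hochberg adjusted p, 0 members passed, beside 12 of all 1294 (0.927%, 6 higher and 6 lower in IMA). At 0.05, 1 member passed, beside 18 of all (1.39%), and at an unadjusted p under 0.05 there were 2 members, beside 170 of all (13.1%). The limma voom and DESeq2 fits each placed the ITGAV circRNA under 0.01 and no other member. The median log2 fold change, IMA over IMPA, was 0.01 for the members and -0.06 for all circRNAs tested. With library sizes from uniquely mapped reads these medians were 0.22 and 0.13.

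Unpaired circRNAs of similar spliced length gave the following values. Above 200 and up to 300 nt the median log2 fold change was 0.02 over 5 tested members and -0.18 over 331 unpaired circRNAs. Above 300 and up to 400 nt the median log2 fold change was -0.01 over 13 tested members and -0.08 over 493 unpaired circRNAs, and above 400 and up to 600 nt it was 0.06 over 8 members and 0.04 over 250 others. Unadjusted p under 0.05 occurred for 1 of those 13 and 1 of those 8, beside 13.6% and 15.2% of the unpaired circRNAs of the same lengths. For 18 of the 28 members the 95% interval of the log2 fold change lay between -1 and 1, as for 614 of all 1294, and for 5 it lay within 0.5 of 0. For the remaining 10 a 2-fold change was not excluded by the interval.

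**Figure D3:**
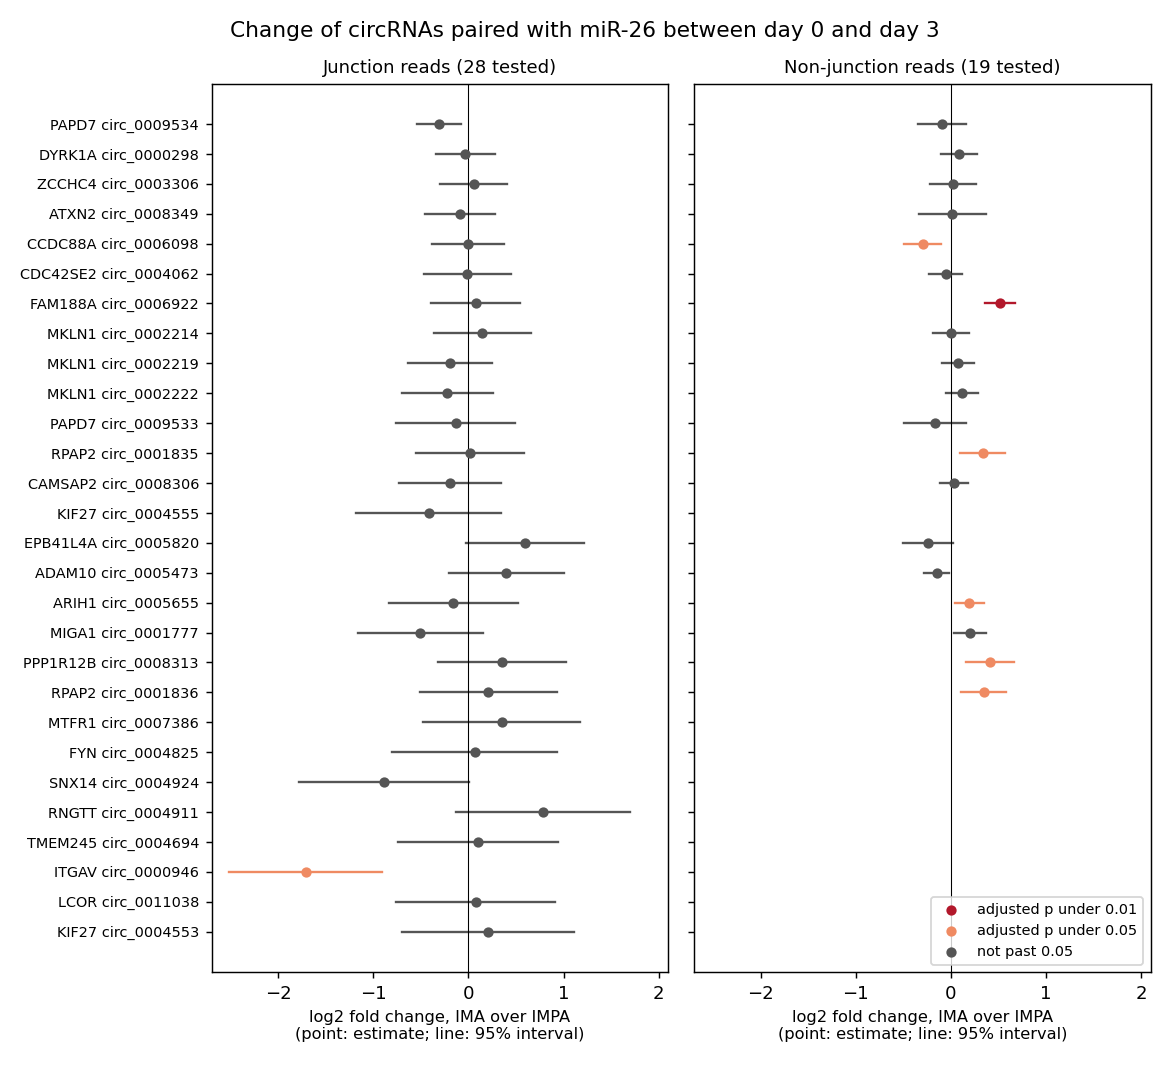
Log2 fold change of each member, IMA over IMPA, with its 95% interval, in junction reads (left, 28 members) and non-junction reads (right, 19 members), ordered by total junction reads. In junction reads the interval of ITGAV circ_0000946 lies farthest below 0, and in non-junction reads FAM188A, at 0.52, is the member past an adjusted p of 0.01.

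ITGAV encodes the integrin alpha V chain, which forms receptors for vitronectin and other matrix proteins and takes part in the release of latent TGF-beta. Its member circ_0000946 (chr2:126796662-126798108, 3 exons, 309 nt) was paired with both miRNAs on its junction. The primer pair that the study designed for this circRNA is shown because this is the member whose level differed, and no base in it is capitalised.
Forward: gacagaaaaccaaacccgcc
Reverse: aaggtcagagggttgtcgtc

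The junction reads of circ_0000946 were 7, 3, 10, 2 and 3 in IMPA replicates 1 to 5 and 0 in every IMA library. The groups did not overlap, which the filter fixed, since a circRNA at 0 in IMA needs reads in every IMPA library to be tested. The counts were low and 3 IMPA libraries were at or under 3 reads. Set against 3 reads per library, the IMPA mean of 376 ± 246 normalized CPM (SD, n = 5) was at least 1.36-fold higher. The IMPA median of 260 CPM was under the 276 CPM that 3 reads stand for in IMA, so this bound rests on the higher IMPA libraries. The edgeR log2 fold change was -1.71 (SE 0.40, adjusted p = 0.0124). With DESeq2's Wald test it was -4.45 and with limma voom -2.99, so its size depended on the fit. Non-junction reads at its location were 779, 634, 752, 767 and 792 in IMPA, and they are not listed for libraries without junction reads. Circular share, in which each junction read counts as 2 and the doubled count is divided by itself plus the non-junction reads, was 1.31% ± 0.855 (SD, n = 5) in IMPA.

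The call on circ_0000946 rests on the 5 IMPA libraries. Without any of them it had reads in 4 libraries and was not tested, and without each IMA library in turn the adjusted p was 0.0217 to 0.0343. Over the 7 other edgeR, DESeq2 and voom settings that tested it, the adjusted p was 0.00529 to 0.118, the highest with the replicate number as a block. The filter filterByExpr of edgeR and that of a mean count of at least 10 removed it before testing.

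The other circRNAs of ITGAV are unpaired, and neither passed 0.05. Circ_0000943, from exons upstream, had 34, 30, 31, 35 and 32 reads in IMPA and 48, 26, 29, 29 and 31 in IMA (log2 fold change 0.26, SE 0.17, adjusted p = 0.526, edgeR). Its non-junction reads, which follow the linear ITGAV mRNA, had a log2 fold change of 0.05 (SE 0.06, adjusted p = 0.565, edgeR). Circ_0000948, from exons downstream, had 0 reads in every IMPA library and 2, 2, 3, 2 and 3 in IMA, which puts both groups at or under 3 reads and allows no fold (adjusted p = 0.0632, edgeR). It met the filter for testing through IMA alone, the group where it was higher.

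**Figure D4:**
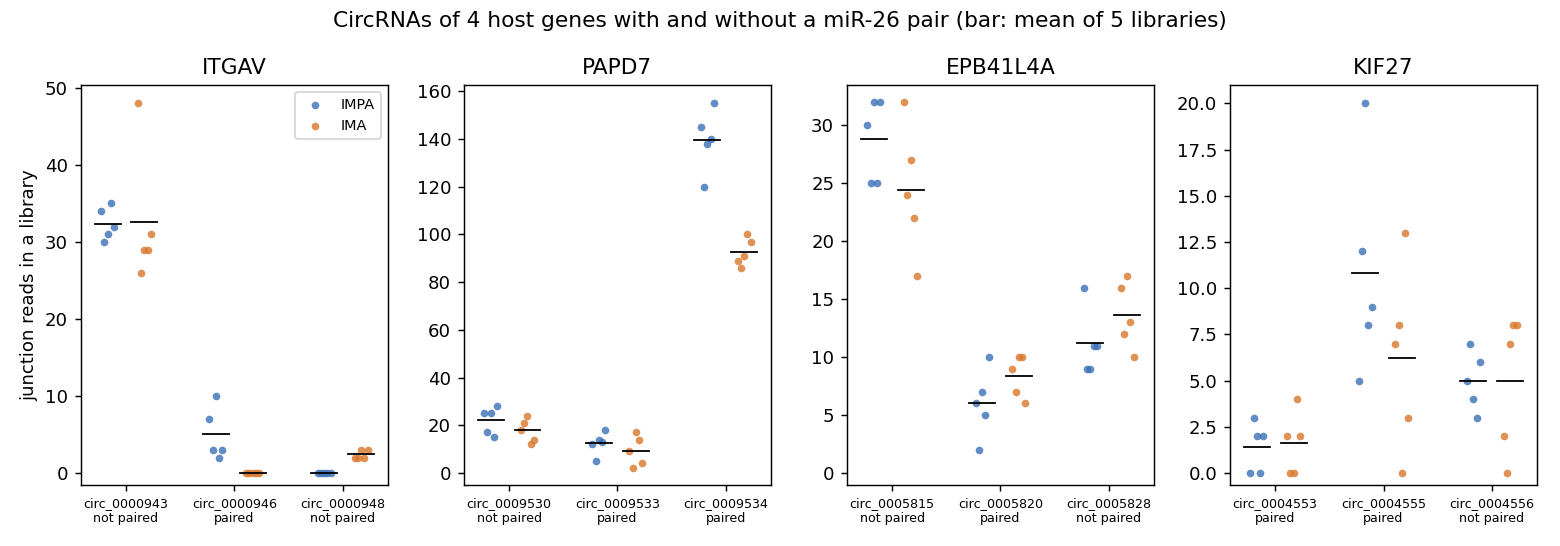
Junction reads per library (y axis, linear) for circRNAs of ITGAV, PAPD7, EPB41L4A and KIF27, labelled as paired or not paired with miR-26, with IMPA in blue, IMA in orange and a bar at each mean of 5 libraries. Reads of ITGAV circ_0000946 are at 0 in IMA while circ_0000943 stays between 26 and 48 in both groups, and PAPD7 circ_0009534 lies at 120 to 155 in IMPA and 86 to 100 in IMA.

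PAPD7 circ_0009534 was the other member with an unadjusted p under 0.05. Its junction reads were 145, 120, 138, 140 and 155 in IMPA and 89, 86, 91, 100 and 97 in IMA. Normalized for library size its CPM averaged 10622 ± 609 on day 0 and 8530 ± 1109 on day 3 (SD, n = 5 each), and the groups did not overlap. Members whose groups did not overlap downwards numbered 2 of 28, this one and circ_0000946, beside 2.16% of all circRNAs, and 0 did so upwards, beside 2.24%. With 0 reads in IMA, circ_0000946 could meet the filter only through reads in every IMPA library. Its lack of overlap was thus set by the filter and adds nothing to this count. For PAPD7 circ_0009534 the edgeR log2 fold change was -0.31 (SE 0.11), which did not pass adjustment over all circRNAs (adjusted p = 0.182, edgeR).

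The size of the PAPD7 difference depended on the scaling. Relative to uniquely mapped reads its log2 fold change was -0.07 (adjusted p = 0.822), where all circRNAs had a median of 0.13. The shorter paired circle circ_0009533 had a log2 fold change of -0.14 (SE 0.31) and the unpaired circ_0009530 of -0.03 (SE 0.20), neither past the test. Non-junction reads at circ_0009534 were 69, 67, 71, 87 and 106 in IMPA and 41, 46, 66, 45 and 53 in IMA, with a log2 fold change of -0.09 (SE 0.12, adjusted p = 0.600, edgeR).

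The next most abundant members did not differ between the days beyond their spread. DYRK1A circ_0000298 had 60, 45, 70, 55 and 49 reads in IMPA and 51, 45, 38, 39 and 53 in IMA (log2 fold change -0.03, 95% interval -0.34 to 0.27). ZCCHC4 circ_0003306 had 39, 42, 66, 45 and 53 in IMPA and 53, 23, 56, 30 and 51 in IMA (0.06, interval -0.30 to 0.41). The circRNA of ATXN2, an RNA-binding protein, circ_0008349, had 40, 21, 35, 21 and 27 in IMPA and 24, 19, 28, 19 and 22 in IMA (-0.09, interval -0.46 to 0.28). In each the groups overlapped.

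Further down the order, CCDC88A (girdin, an actin-binding signalling protein) circ_0006098, CDC42SE2 (a CDC42 effector) circ_0004062 and FAM188A (a deubiquitinase) circ_0006922 had log2 fold changes of -0.01, -0.01 and 0.08. The MKLN1 circRNAs were at near equal levels to each other, with 156, 154 and 153 reads in all, although their junctions join the same exon to partners that lie far apart. In IMPA circ_0002214 had 20, 13, 11, 18 and 19 reads, circ_0002219 had 14, 16, 19, 17 and 24, and circ_0002222 had 15, 21, 21, 11 and 22. Their log2 fold changes were 0.15 (SE 0.25), -0.20 (SE 0.22) and -0.22 (SE 0.24), with all groups overlapping.

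The FYN circRNA, the remaining junction-only member, had 5, 4, 5, 4 and 6 reads in IMPA and 4, 0, 2, 5 and 10 in IMA (log2 fold change 0.07, SE 0.43). In LCOR, paired with miR-26a-5p alone, there were 4, 2, 3, 2 and 2 reads in IMPA and 3, 5, 4, 0 and 0 in IMA (0.08, SE 0.41). Counts this low leave wide 95% intervals, -0.80 to 0.93 for FYN and -0.76 to 0.91 for LCOR. Changes of that size in either direction were not excluded, and the smallest detectable change was not computed.

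Of the members paired with miR-26b-5p alone, RPAP2 circ_0001835 had 20, 8, 14, 8 and 8 reads in IMPA and 16, 7, 10, 10 and 6 in IMA (0.02, SE 0.28), and circ_0001836 had 2, 3, 5, 6 and 11 in IMPA and 5, 6, 5, 6 and 5 in IMA (0.21, SE 0.36). The circRNA of ADAM10, a membrane protease that sheds cell surface proteins, had 6, 5, 7, 8 and 7 in IMPA and 5, 8, 10, 10 and 6 in IMA (0.40, SE 0.30). In all 5 members paired with 1 miRNA the groups overlapped.

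The remaining 27 members tested, leaving aside circ_0000946, gave log2 fold changes of -0.89 to 0.79 and adjusted p of 0.182 to 0.994. The extremes were SNX14, a sorting nexin, with 5, 3, 8, 6 and 10 reads in IMPA and 4, 6, 0, 0 and 0 in IMA, and RNGTT, the mRNA capping enzyme, with 3, 3, 0, 0 and 5 in IMPA and 0, 6, 5, 5 and 6 in IMA. Their adjusted p were 0.385 and 0.458 (edgeR).

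PLIN2 coats lipid droplets and its mRNA is abundant in lipid-laden cells. Its member circ_0004262, read in too few libraries to be tested, had 3, 0, 0, 0 and 2 reads in IMPA and 3, 0, 0, 0 and 2 in IMA. The paired circle was thus at or under 3 reads on both days. Non-junction reads at its location are listed where it had junction reads and were 492 and 389 in IMPA replicates 1 and 5 and 1395 and 1119 in IMA replicates 1 and 5. The neighbouring unpaired circ_0004263 was read in all libraries, with 2, 4, 4, 2 and 3 junction reads in IMPA and 7, 6, 10, 9 and 7 in IMA (log2 fold change 1.16, SE 0.34, adjusted p = 0.0752, edgeR). Non-junction reads there rose by 1.93 on the log2 scale (SE 0.12, adjusted p = 1.51e-14, edgeR), with 638 to 1010 reads in IMPA libraries and 1932 to 2416 in IMA libraries. Linear PLIN2 was thus higher in every IMA library.

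Non-junction reads, which come from the linear RNA of the same loci, were tested for the 19 members listed in all 10 libraries, fitted over 690 such loci. At an adjusted p under 0.01, 1 member passed, beside 150 of 690 loci (21.7%; 80 higher, 11.6%, and 70 lower, 10.1%). That member was FAM188A circ_0006922, with 194, 206, 231, 191 and 279 non-junction reads in IMPA and 232, 199, 261, 173 and 196 in IMA. Normalized, the 5 IMPA libraries averaged 1044 ± 99.9 CPM and the 5 IMA libraries 1496 ± 97.3 CPM (SD), without overlap. The log2 fold change was 0.52 (SE 0.08, adjusted p = 5.90e-06, edgeR), and it passed 0.01 in every setting tried.

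The circle of FAM188A showed neither a change of its own nor a departure from its linear RNA beyond the spread. Its junction reads were 12, 16, 14, 22 and 25 in IMPA and 20, 10, 27, 10 and 12 in IMA (log2 fold change 0.08, 95% interval -0.39 to 0.54). The ratio of junction to non-junction reads had a log2 fold change of -0.18 (SE 0.29, adjusted p = 0.728, limma), so that an unequal change of circle and linear RNA was not shown.

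At an adjusted p under 0.05, 6 of the 19 members passed in non-junction reads, beside 246 of 690 loci (35.7%). PPP1R12B, a subunit of myosin phosphatase, rose by 0.41 (SE 0.12, adjusted p = 0.0114), from 248 ± 12.9 to 333 ± 19.5 normalized CPM (SD, n = 5) without overlap. Members whose groups did not overlap upwards in non-junction reads were 2 of 19, this one and FAM188A, beside 12.2% of loci. CCDC88A fell by 0.29 (SE 0.10, adjusted p = 0.0168), with overlapping groups. The RPAP2 loci, which share exons and reads, rose by 0.33 and 0.35 (adjusted p = 0.0257 and 0.0211), and ARIH1, a ubiquitin ligase, by 0.19 (adjusted p = 0.0437, edgeR).

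The calls at 0.05 were less firm than that of FAM188A. Without normalization by TMM the RPAP2 loci and ARIH1 no longer passed (adjusted p of 0.0702, 0.0583 and 0.177), nor with uniquely mapped reads as library sizes (0.0666, 0.0547 and 0.154). In the same settings the adjusted p of CCDC88A, the locus that fell, was lower, at 0.00400 and 0.00600. With 1 library left out, ARIH1 passed in 2 of 10 fits, RPAP2 circ_0001835 in 7, circ_0001836 in 9, CCDC88A in 8 and PPP1R12B in 10. Leaving out IMA replicate 2 gave RPAP2 adjusted p of 0.136 and 0.127, and leaving out IMPA replicate 1 or IMA replicate 5 gave CCDC88A 0.0648 and 0.0559 (edgeR).

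The ratio of junction to non-junction reads asks whether circle and linear RNA changed unequally and does not depend on library size. Of 611 circRNAs with a mean of at least 5 reads of each kind, 2 passed 0.01 (0.327%), both higher in IMA, and 0 of the 19 members tested did; 161 of the 611 and 3 of the members had an unadjusted p under 0.05 (limma). The median log2 change of the ratio was 0.31 over all and 0.19 over the members. At 0.05, 1 member passed beside 11 of 611 (1.80%), EPB41L4A circ_0005820.

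EPB41L4A encodes a FERM domain protein. Its paired circ_0005820 had 6, 2, 7, 5 and 10 junction reads in IMPA and 9, 7, 10, 10 and 6 in IMA, beside 111, 93, 131, 123 and 165 non-junction reads in IMPA and 66, 99, 71, 53 and 61 in IMA. Circular share averaged 8.37% ± 2.66 on day 0 and 19.9% ± 5.73 on day 3 (SD, n = 5 each). The groups did not overlap, and how many of all loci did not overlap in this measure was not computed. The log2 change of the ratio was 1.41 (SE 0.32, adjusted p = 0.0268, limma), against the median of 0.31 over all circRNAs. Without IMPA replicate 2 or 4 or IMA replicate 1 or 4 the adjusted p was 0.0507, 0.0787, 0.0590 and 0.0684.

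An unpaired circle of this host passed the same threshold. Circ_0005828 of EPB41L4A had a log2 change of 1.08 (SE 0.25, adjusted p = 0.0304, limma) and circ_0005815 of 0.39 (SE 0.24, adjusted p = 0.306). In ADAM10 circular share averaged 2.22% ± 0.529 on day 0 and 4.21% ± 1.25 on day 3 (SD, n = 5 each), a log2 change of the ratio of 0.92 (SE 0.29) that did not pass (adjusted p = 0.0802, limma). In CCDC88A circ_0006098 the groups did not overlap either, with a highest share of 22.5% in IMPA and a lowest of 22.9% in IMA. Its log2 change of the ratio was 0.64 (SE 0.26) and did not pass (adjusted p = 0.137, limma).

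Members ranged widely in how circular their loci were. The mean circular share over the libraries was 78.3% for PAPD7 circ_0009534, 56.3% for ATXN2 circ_0008349 and 50.6% for ZCCHC4 circ_0003306, and these 3 of 19 were over 50% (15.8%), as were 35 of 690 loci (5.07%). The lowest of the 19 was ADAM10, with 3.22%. The median was 16.4% over the members and 11.8% over all 690 loci.

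**Figure D5:**
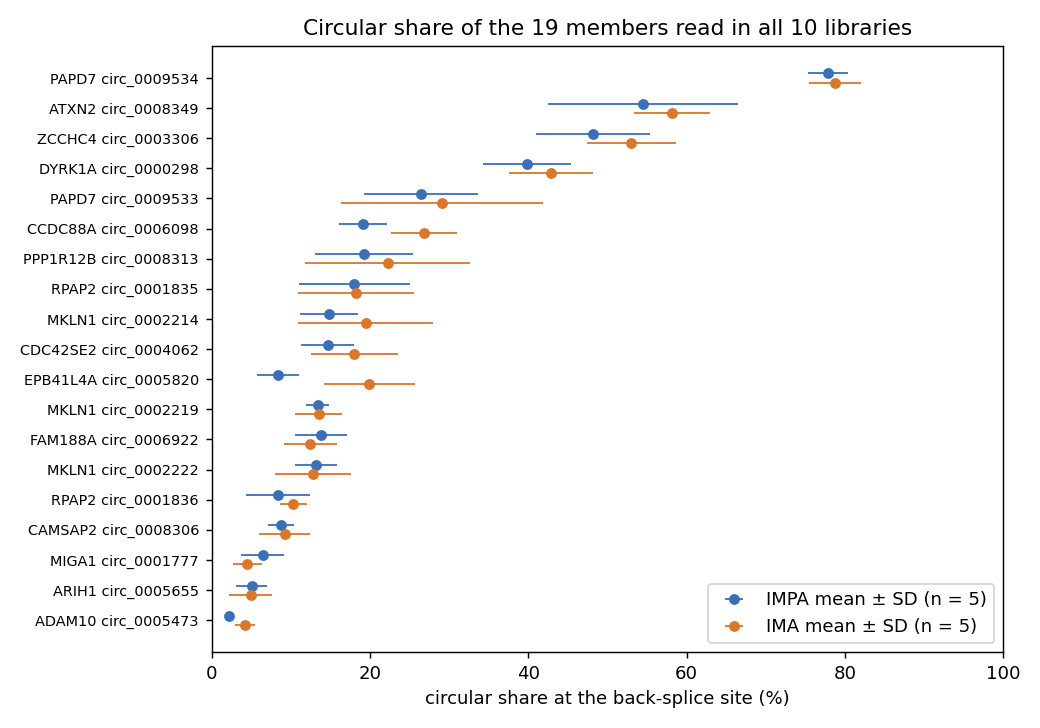
Circular share in percent for the 19 members read in all libraries, as mean ± SD over 5 IMPA libraries (blue) and 5 IMA libraries (orange), ordered by the mean over all libraries. PAPD7 circ_0009534 is at 78% on both days, and EPB41L4A circ_0005820 moves from 8.37% to 19.9%.

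Genes tied to miR-26 by other routes were looked at as host genes. Of the 3 CTDSP genes that carry miR-26 in their introns, 0 host a circRNA here. Of 25 genes known as miR-26 targets, 9 host 10 circRNAs, among them EZH2, CDK8, SMAD1, SMAD4, RB1 and TET1, and 0 of these circRNAs were paired with miR-26. In junction reads 0 of the 10 passed 0.01 in either direction, with a median log2 fold change of -0.01. In non-junction reads 1 of 6 tested loci passed, beside 21.7% of all loci, CDK8, a kinase of the Mediator complex, which rose by 0.51 (SE 0.07, adjusted p = 1.86e-06, edgeR). Of 14 genes of the miRNA pathway, only AGO2, which carries the miRNA to its target, hosts a circRNA. Its junction reads did not pass (log2 fold change -0.17, SE 0.31), and its non-junction reads fell by 0.46 (SE 0.10, adjusted p = 0.000584, edgeR).

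Other host lists held few members. Focal adhesion and matrix genes hosted 18 circRNAs in 11 of 38 genes, with ITGAV as the host of the member among them, and 1 rose and 0 fell past 0.01 in junction reads, beside 0.927% of all circRNAs in either direction. Adipogenesis genes hosted 9 circRNAs in 5 of 31 genes, with PLIN2 as the host of the member among them, and 0 of 8 tested passed. Genes of PI3K-Akt and insulin signalling hosted 11 circRNAs and chromatin genes 27, none paired with miR-26. Of these 0 of 10 and 2 of 27 tested passed, both of the latter lower in IMA, beside 0.464% of all circRNAs lower.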

How the data were processed

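The authors removed ribosomal RNA, mapped clean reads with HISAT2 and kept circRNAs found by both find_circ (at least 2 reads) and CIRI2; SAMtools is named in the submitters' processing notes. In the deposited counts each value is the number of reads across a back-splice junction in a library, and non-junction reads were counted by the authors at the same loci. Values deposited as TPM are CPM values of the junction counts without a length term and were not tested. Their circRNA table also lists 10 further samples, which were not used, and 3 repeated rows were dropped. The pair list holds names alone, without positions or scores, and the study names miRanda and TargetFinder for site prediction, with settings and genome build not given in the sources used here. Chromosome numbers were named through gene IDs.

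For junction reads the test was that of edgeR 4.0.16 (R 4.3.3, TMM, glmQLFit, glmQLFTest, prior count 2) over the 1294 circRNAs read in at least 5 of 10 libraries, IMA against IMPA, with Benjamini-Hochberg adjustment at 0.01, the study's threshold. Non-junction reads are missing where a library had no junction reads, so they were tested the same way over the 690 loci listed in every library. The ratio was tested with limma 3.58.1 (trend) on log2((junction + 0.5)/(non-junction + 0.5)) for circRNAs with a mean of at least 5 reads of each kind. DESeq2 1.42.0, voom, other scalings and filters, a threshold of 0.05, narrower member sets, the replicate block and each library left out were alternatives. Normalized CPM use TMM factors, and summaries were made in Python 3.11.15 with pandas 2.3.3. The fits were also run on simulated counts, and that outcome is not used as support here.

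The members, host lists, marker lists and the rule for named circRNAs were chosen with earlier results of these data known. The rule took members past 0.05, all circRNAs of ITGAV, the most abundant members, members with the smallest p, junction-only members, members with 1 miRNA, members in host lists, hosts with paired and unpaired circRNAs, and the extremes of length. Rises and falls in junction counts are relative to all circRNA reads. Intervals cover the spread between libraries, reads carry no molecular identifiers, and whether counting used the strand is not given in the sources used here. The values of 1 member are not reported here by name, and it is counted in the totals.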

Additional observations from a re-analysis of the deposited data

Results flagged for a closer look

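A library was set apart where its gap to the nearest of the other 4 exceeded 0.71 of the range of its group, which was tested in 98 groups of 5 libraries and which chance does in about 1 in 20. It occurred in 5 groups (5.10%). In junction reads, PAPD7 circ_0009534 was at 11675 normalized CPM in IMPA replicate 4, beside 10199 to 10595 in the others, and without that library its log2 fold change was -0.30. In non-junction reads, MKLN1 circ_0002222 was at 1305 in IMPA replicate 2 beside 1046 to 1107, and CCDC88A circ_0006098 was at 973 in IMPA replicate 1 beside 797 to 844. In IMA replicate 2, ZCCHC4 circ_0003306 was at 404 beside 522 to 548, and EPB41L4A circ_0005820 was at 741 beside 415 to 467. Without IMA replicate 2 the non-junction reads of EPB41L4A passed 0.01, with a log2 fold change of -0.42, and the ratio of junction to non-junction reads kept its direction, at 1.59.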

How the results depend on the processing

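In junction reads 0 members rose past 0.01 in any setting, and 1 fell with DESeq2's Wald test, with limma voom and at a threshold of 0.05, which was circ_0000946 each time; leaving out 1 library gave 0 to 0 in each direction. In non-junction reads 1 member rose, 2 with the replicate block and 5 at 0.05; 0 fell, 2 without TMM, 1 with uniquely mapped reads as library sizes, 1 at 0.05 and 0 to 2 when 1 library was left out, the 2 without IMA replicate 2. In the ratio 0 members passed 0.01 in any setting and 1 was higher at 0.05. At 0.01 leaving out the junction-only members changed no count, but in junction reads and in the ratio these counts were 0 already. The member called at 0.05 in junction reads, circ_0000946, is itself junction-only. The replicate numbers did not pair the libraries (correlations of -0.02 to 0.01, with 0 of 5 IMPA libraries closest to their own number), and with the number as a block 0 members fell in junction reads. Over all 690 loci, 80 of 150 calls in non-junction reads were higher (53.3%), against 48 of 154 without TMM (31.2%) and 49 of 142 with uniquely mapped reads (34.5%). The median log2 fold change of members in junction reads was 0.01, 0.22 with uniquely mapped reads, where that of all circRNAs moved from -0.06 to 0.13, and -0.08 to 0.04 when 1 library was left out. The share of junction reads differed by -0.05 percentage points, and by -0.14 to 0.04 when 1 library was left out; leaving out the circRNA of ITGAV, a setting chosen after seeing the data, gave -0.01. Without PAPD7 circ_0009534 the share differed by 0.11, inside the spread of 0.20 between libraries. Among single members, 477 values in junction reads, 277 in non-junction reads and 241 in the ratio stayed called or lay within 1 SE of the first value, 16, 2 and 0 moved further without a call, and 2, 6 and 0 came under 0.01. Depth limits the junction counts: 17 members had a mean under 10 reads, and a p that missed the threshold there does not show that levels were equal. Matches to the miR-26 seed in the circRNA sequences were not run, since no genome of the files' build was used.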

Other observations

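The 30 members were also paired with 182 other miRNAs, 109 of them with 1 member only. The miRNA shared most often was chi-miR-145-3p, paired with 8 members (26.7%) from 7 hosts, against 78 of all circRNAs (5.88%). Those 8 included PAPD7 circ_0009534, DYRK1A circ_0000298 and both KIF27 circRNAs and held 49.0% of the members' junction reads. Next came chi-miR-378-3p, with 6 members (20%, against 3.77% of all circRNAs) from MKLN1, KIF27 and PLIN2, and chi-miR-502b-5p with 5. These counts were not tested, and members of 1 host share exons.

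The listed blocks of 6 members did not reach both ends of their location, as for 288 of all 1327 circRNAs (21.7%). Among these were the circRNAs of FYN and LCOR, both of RPAP2, and MKLN1 circ_0002222. Of the 6 junction-only members 2 were among them, FYN circ_0004825 and MKLN1 circ_0002222.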
